A study of Mus musculus with 54 samples.

Results

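The 44 collagen chains and 18 stromal matrix genes described here were chosen by gene symbol, 62 of the 16772 genes in the table. The choice was made with earlier results of these data known. They comprise 11 fibrillar, 6 basement membrane, 6 beaded filament, 9 FACIT, 2 multiplexin, 4 short-chain or anchoring and 4 transmembrane collagens and 2 further collagens, with 5 small leucine-rich proteoglycans (Lum, Dcn, Bgn, Fmod, Ogn), 5 matrix glycoproteins (Fn1, Postn, Sparc, Fbn1, Fbn2), 5 lysyl oxidases (Lox, Loxl1 to Loxl4) and 3 surface markers of stromal cells (Thy1, Pdgfra, Pdgfrb). FACIT stands for fibril-associated collagens with interrupted triple helices. RNA was sequenced from whole prostate tumour tissue of 48 mice in 11 groups, and the 6 mice that gave 2 pieces of tissue entered every value as the mean of their pieces.

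DKO mice were studied beside DKO_EE and DKO_EP mice, which per the series' design text are DKO models that also carry Ezh2 deletions. Each of these genotypes was sampled at 12 weeks of age without castration (4 DKO, 4 DKO_EE, 4 DKO_EP), at endstage without castration (3 DKO aged 35 to 46 weeks, 8 DKO_EE aged 28 to 42 weeks, 3 DKO_EP aged 39 to 52 weeks), and at endstage after castration at 12 weeks (4 DKO aged 39 to 99 weeks, 5 DKO_EE aged 35 to 59 weeks, 5 DKO_EP aged 34 to 37 weeks). Castrated TKO mice received vehicle (4 mice, 15 to 19 weeks) or the Ezh2 inhibitor CPI1688 (4 mice, 18 to 19 weeks). The labels name neither the alleles, the Cre driver nor the meaning of EE and EP. Nothing in them says whether mice were littermates. The p-values set each difference against the spread between these mice, which were treated as independent.

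Collagens are trimers of α chains. Fibrillar types I, III and V are made mostly by fibroblasts and give tissue its tensile strength, whereas type IV forms the network of basement membranes under epithelium and around vessels. FACIT collagens and small leucine-rich proteoglycans sit on fibrils and regulate their spacing, lysyl oxidases cross-link them, and transmembrane collagens such as collagen XVII anchor basal epithelial cells to the basement membrane. In the prostate, a fibromuscular stroma surrounds the glands and is remodelled as carcinoma grows.

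Recovered reads per library ranged from 3687048 to 9741808. In that depth 32 of the 62 genes had a median of at least 100 reads per library, 8 had a median under 10, and 43 had reads in every library. Ezh2 averaged 8.40, 7.60 and 8.22 at 12 weeks and 9.61, 8.28 and 9.39 at intact endstage in DKO, DKO_EE and DKO_EP, 9.45 in TKO on vehicle and 9.85 on CPI1688. It averaged 9.36 ± 0.62 (SD, n = 4) in castrated DKO, 8.46 ± 0.47 (n = 5) in castrated DKO_EE and 9.17 ± 0.33 (n = 5) in castrated DKO_EP on the log2(normalized count + 1) scale, which is the scale of every level below. Libraries of intact endstage DKO_EE and DKO_EP tumours gave up to 35.3% and 14.2 to 19.3% of their reads to Lars2, against at most 0.036% in every other group. Among 12-week animals, Ttn, a skeletal muscle gene, took up to 2.55% of reads in DKO and 2.53% in DKO_EP but at most 0.0165% in DKO_EE. Summed neuroendocrine markers were 37 normalized counts in castrated DKO animal 2, which was also the oldest at 99 weeks, against 14750 to 26285 in castrated DKO_EE. The sums of the other castrated DKO animals are not listed here, so no difference between the groups is read from this 1 animal. Pieces of 1 mouse differed by a median of 0.75 to 1.43 log2 units across the 62 genes. In whole tissue, fewer stromal cells and less RNA per stromal cell cannot be told apart.

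Matrix transcripts were led by Sparc, a collagen-binding glycoprotein. Its median over all mice was 834 normalized counts per kb of exon, ahead of Col3a1 at 669, Fn1 (fibronectin) at 577, Col1a1 at 550 and Col4a1 at 435. The order differed between groups: Dcn, the proteoglycan decorin, ranked highest in 12-week DKO tumours at a median of 1472 per kb, Col3a1 in intact endstage DKO at 2309, Col1a1 in castrated DKO at 960, and Col8a1, a short-chain collagen of vessel walls, in castrated DKO_EE at 428 per kb. These ranks were read from medians of 3 to 8 mice, and neighbours in the order were not tested against each other.

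The 62 genes took a mean of 0.464% ± 0.181 (SD, n = 5) of reads in castrated DKO_EE, 0.766% ± 0.281 (n = 5) in castrated DKO_EP and 0.974% ± 0.313 (n = 4) in castrated DKO. The 4 TKO tumours on vehicle gave 7.9%, 1.26%, 0.49% and 1.36%, so that 1 animal stood far above the other 3, and those on CPI1688 gave 0.965%, 1.46%, 3.82% and 6.24%. The vehicle shares overlapped those of castrated DKO_EE, DKO_EP and DKO, and the CPI1688 shares overlapped those of castrated DKO_EP and DKO and lay above every castrated DKO_EE tumour. Of the 62 genes, 29 had their lowest group mean in castrated DKO_EE and 28 their highest in CPI1688-treated TKO. The share of all genes with these extremes is not given here. In every one of the 62 genes the CPI1688 and vehicle values overlapped. Over the 11 group means, 30 genes correlated with the mean of the other members at a Pearson r of 0.7 or more, while 9 had an r below 0, with Col9a1 (−0.55), Col8a1 (−0.54) and Col22a1 (−0.45) farthest below. The 5 genes outside the 62 whose group means most resembled their averaged pattern were Nos3 (r = 0.983), Gjc1 (0.982), Fkbp10 (0.98), Ppic (0.978) and Arsj (0.977), each over 11 groups that share libraries and scaling.

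**Figure D1:**
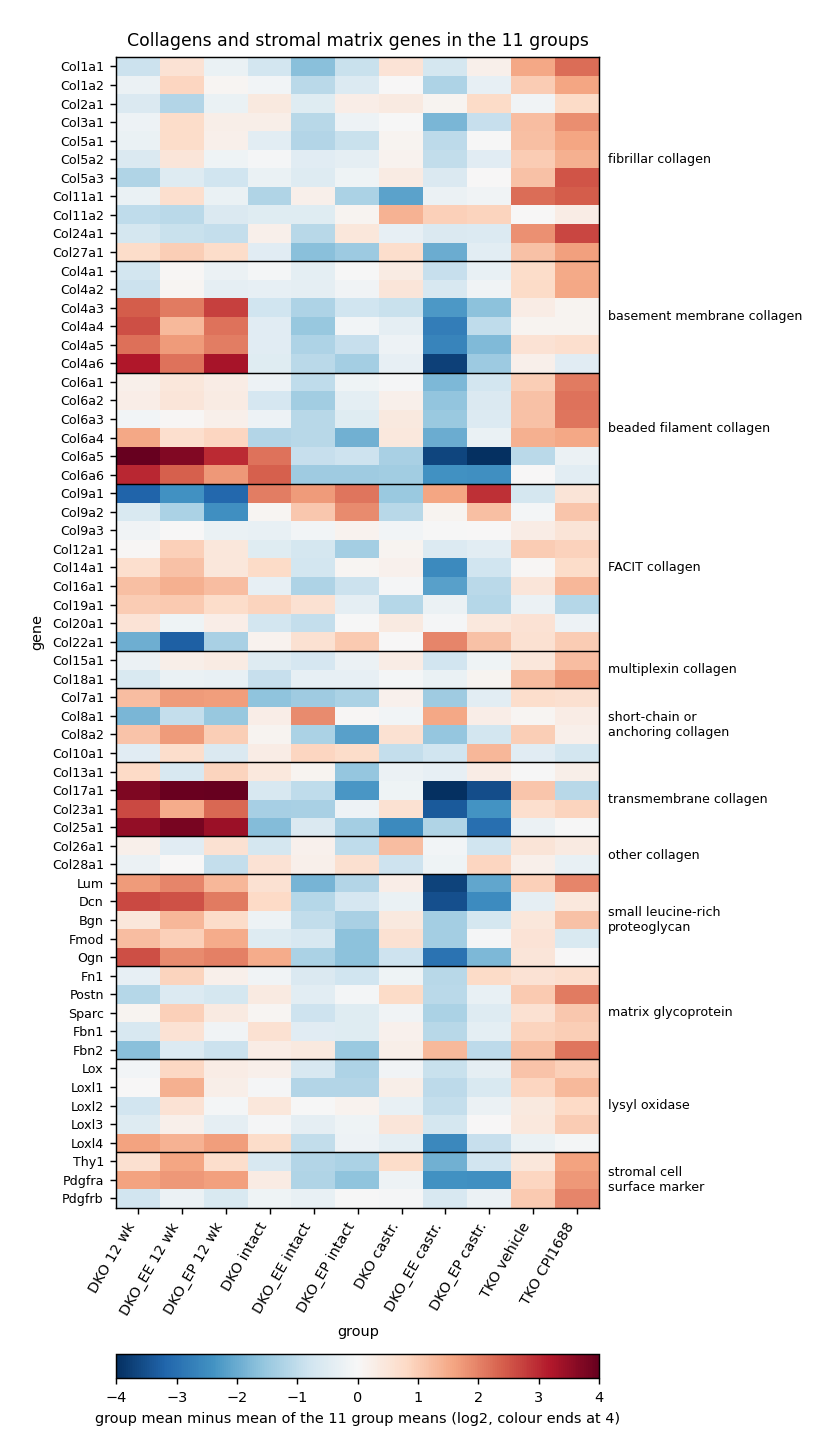
Each row is 1 of the 62 genes, ordered by class, and each column is 1 of the 11 groups. The colour gives the group's mean log2 level minus the mean of the 11 group means. Castrated DKO_EE holds the lowest mean for 29 genes and CPI1688-treated TKO the highest for 28, and Col9a1, Col8a1 and Col22a1 run opposite to the mean of the others. In all 62 genes the single CPI1688 and vehicle values overlap.

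The largest set of differences between genotypes lay in castrated endstage tumours. There 14 of the 62 genes were lower and 1 was higher in DKO_EE than in DKO, 24.2% of the 62 beside 7.72% of all 16558 genes tested, 4.3% lower and 3.42% higher (limma, with p adjusted over all genes by Benjamini-Hochberg and called below 0.05). The genes that fell were the proteoglycans Lum, Dcn and Bgn, the fibrillar Col3a1 and Col27a1, the type VI chains Col6a1, Col6a2 and Col6a3, the type IV chains Col4a1 and Col4a2, the FACIT chains Col14a1 and Col16a1, the transmembrane Col23a1 and the fibroblast surface glycoprotein Thy1. The median log2 difference of the 62 genes was −1.25, against −0.004 for all genes, and 51 of 62 lay below 0. The count of 15 became 7 when age entered as a covariate and 29 with array weights, and lay between 10 and 20 when any 1 animal was left out. Without castrated DKO animal 2, 17 were lower and none higher, and without DKO animal 3, 20 were lower. All castrated DKO mice carry identifiers with the letters DKO, and all castrated DKO_EE and DKO_EP mice identifiers with DKOE. The labels do not explain these letters, so genotype and any difference between the 2 series of animals cannot be told apart here.

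Among the small leucine-rich proteoglycans, 3 of 5 fell. Lum, the fibril-spacing proteoglycan lumican, read 8.85, 8.19, 7.46 and 9.15 in the 4 castrated DKO tumours and 2.81, 4.64, 4.71, 5.02 and 5.05 in the 5 castrated DKO_EE tumours. Dcn read 10.77, 11.08, 8.23 and 10.40 in DKO and 5.99, 6.79, 6.60, 7.61 and 7.37 in DKO_EE. In both genes every DKO_EE tumour lay below every DKO tumour. The log2 difference was −3.97 ± 0.72 (SE, limma adjusted p = 0.00697) for Lum and −3.25 ± 0.62 (adjusted p = 0.00904) for Dcn. Bgn, biglycan, differed by −1.73 ± 0.36 (adjusted p = 0.0139), also without overlap. Lum and Dcn stayed past the threshold under every alternative run, and Bgn under every alternative except the fit of all 11 groups.

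Thy1, a surface glycoprotein of fibroblasts that neurons and T cells also carry, gave the smallest adjusted p of the 62 genes. It read 8.5, 9.37, 7.43 and 8.45 in castrated DKO and 5.29, 5.61, 6.35, 5.69 and 5.93 in castrated DKO_EE. The ranges were more than 1 log2 unit apart, and the difference of −2.66 ± 0.42 (limma adjusted p = 0.00312) passed under every alternative run. The receptor Pdgfra differed by −2.20 ± 0.65 and just missed the threshold (adjusted p = 0.054), and Pdgfrb, the receptor typical of pericytes, differed by −0.58 ± 0.42 (adjusted p = 0.416).

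Among the 11 fibrillar chains, Col3a1 and Col27a1 fell. Col3a1, the chain of type III collagen, read 12.95, 12.45, 12.54 and 14.07 in DKO and 10.75, 10.55, 11.76, 11.92 and 11.07 in DKO_EE. The groups did not overlap and the difference was −1.79 ± 0.39 (limma adjusted p = 0.0176), a 3.46-fold lower level, which did not pass in the fit of all 11 groups (adjusted p = 0.128). The type I chains did not pass: Col1a1 differed by −1.25 ± 0.45 (adjusted p = 0.108) and Col1a2 by −1.25 ± 0.41 (adjusted p = 0.0798), with the 95% interval for Col1a1 running from −2.21 to −0.28. Col27a1, known from cartilage, differed by −2.70 ± 0.71 (adjusted p = 0.0352) but lost its call when any of 6 single animals was left out.

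Col6a1, Col6a2 and Col6a3, which assemble into the beaded filaments around stromal cells, fell by 1.74 ± 0.37, 1.78 ± 0.36 and 1.88 ± 0.47 log2 units (limma adjusted p = 0.0159, 0.0115 and 0.0289). Col6a2 read 9.26, 9.94, 9.12 and 10.14 in DKO against 7.30, 7.20, 8.60, 8.10 and 7.95 in DKO_EE, with no overlap. The minor chains Col6a4, Col6a5 and Col6a6 did not pass, and the calls of Col6a1, Col6a2 and Col6a3 were lost in the fit of all 11 groups (adjusted p = 0.0872, 0.0863 and 0.0786). Of the 9 FACIT collagens, Col16a1 and Col14a1 fell. Col16a1 read 8.10, 7.95, 7.51 and 8.15 in DKO and 5.50, 5.09, 6.02, 6.87 and 5.60 in DKO_EE, a difference of −2.11 ± 0.35 (adjusted p = 0.00389) that passed under every alternative run. Col14a1 differed by −2.71 ± 0.61 (adjusted p = 0.0192), and its call was lost without DKO animal 1 or 4 (adjusted p = 0.0508 and 0.0507).

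Col9a1, the α1 chain of cartilage type IX collagen, was the 1 gene that was higher. It read 4.40, 0.00, 1.28 and 4.66 in DKO and 6.93, 5.76, 5.76, 4.06 and 5.68 in DKO_EE, and the groups overlapped. Its difference of 3.05 ± 0.87 (limma adjusted p = 0.0495) stopped passing in 12 of the alternatives, including the fit with age (1.25, adjusted p = 0.352) and the fit without DKO animal 2 (2.19, adjusted p = 0.0879). The transmembrane Col23a1 read 4.56, 5.45, 4.19 and 4.95 in DKO, and in DKO_EE it was listed at 0 in 3 tumours and at 1.0 and 3.23 in the others. Its difference was −3.94 ± 0.87 (adjusted p = 0.0176), and fitted together with age it was −4.04 and no longer passed (adjusted p = 0.0714).

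None of the 5 matrix glycoproteins, 5 lysyl oxidases, 2 multiplexins, 4 short-chain or anchoring collagens and 2 further collagens passed in this comparison. Closest was Postn, periostin, a matricellular protein of activated fibroblasts, at −1.83 ± 0.53 (limma adjusted p = 0.0501), followed by Fbn1, the microfibril protein fibrillin-1, at −1.29 ± 0.39 (adjusted p = 0.0593). The enzyme Loxl4 differed by −2.19 ± 0.69 (adjusted p = 0.07) with no overlap between the groups, and Lox by −0.74 ± 0.57 (adjusted p = 0.447). Col18a1, the multiplexin from which endostatin is cleaved, differed by −0.17 ± 0.83 (adjusted p = 0.923). In all, 14 of the 62 genes had every DKO_EE value below every DKO value, 22.6% beside 5.15% of all genes.

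**Figure D2:**
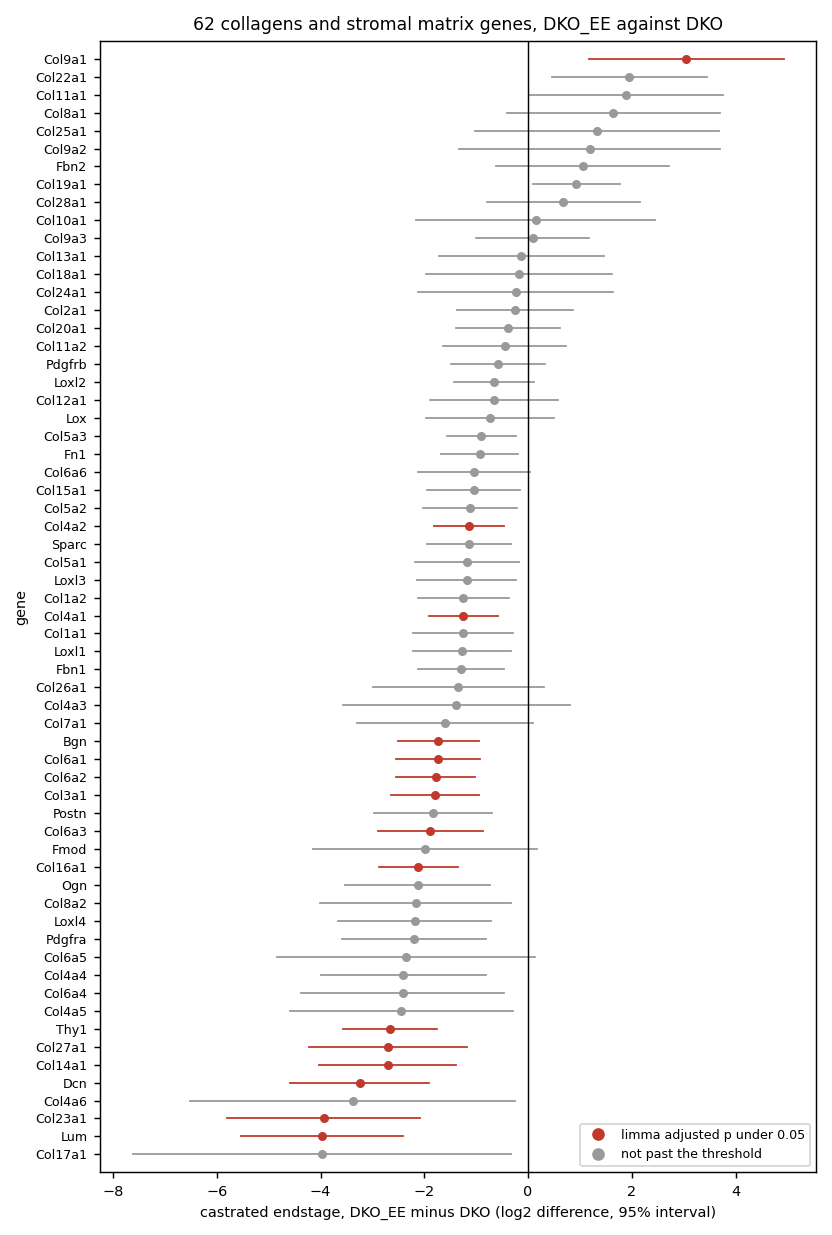
Each row is 1 of the 62 genes, sorted by its log2 difference between castrated DKO_EE (5 mice) and castrated DKO (4 mice). Points give the difference, lines its 95% interval from limma, and red marks an adjusted p under 0.05 over all genes. The 14 genes that fell range from −3.97 (Lum) to −1.13 (Col4a2), and Col9a1 at 3.05 is the 1 that rose.

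**Figure D3:**
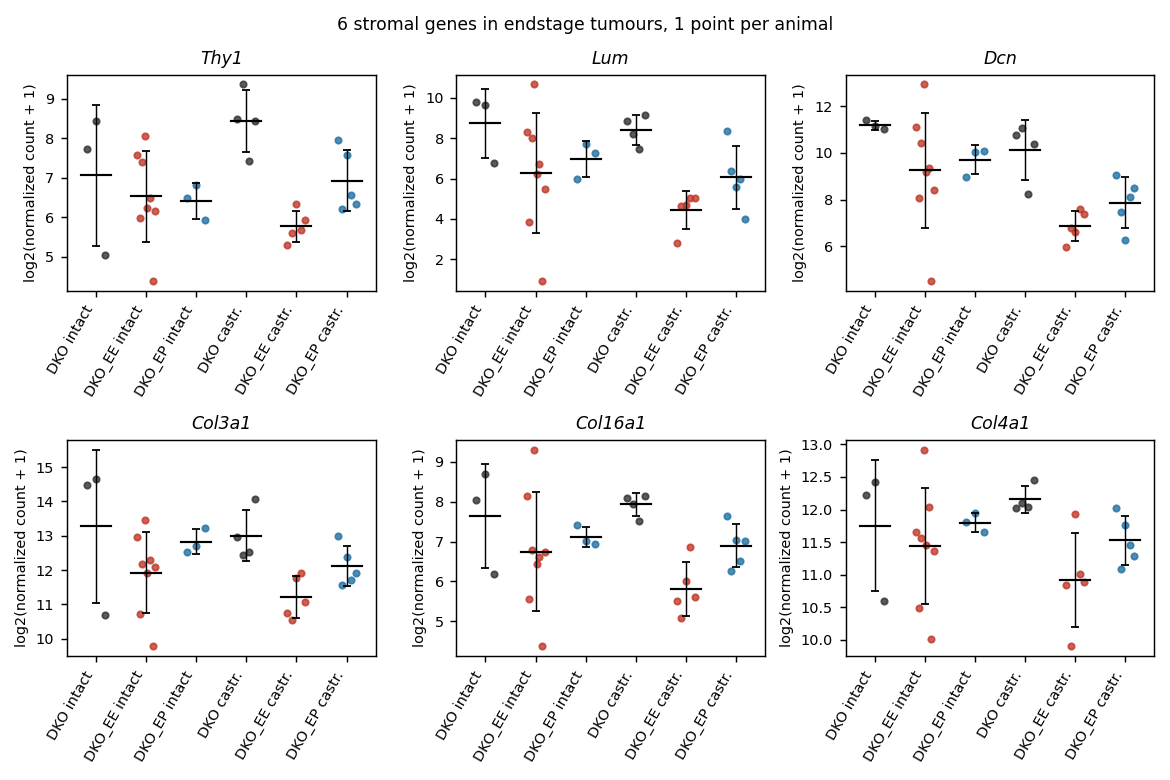
Points show the log2(normalized count + 1) level of 6 genes in each endstage mouse of the 3 DKO genotypes, uncastrated (intact) and castrated (castr.). Horizontal lines are group means and vertical lines 1 SD. In the castrated groups all 5 DKO_EE values lie below all 4 DKO values for each of the 6 genes, while the intact DKO_EE and DKO values overlap.

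Other matrix genes outside the 62 were also lower in castrated DKO_EE than in castrated DKO, where 4.3% of all genes were lower and 3.42% higher. The lists used here and below were chosen with earlier results of these data known. Their counts are therefore descriptive and no independent support for those of the 62. Of 26 collagen processing genes 7 fell and 1 rose: the chaperone Serpinh1 fell by 1.79 ± 0.38 (limma adjusted p = 0.0158) and the procollagen proteinase Bmp1 by 1.37 ± 0.25 (adjusted p = 0.00712), and Pcolce2, an enhancer of procollagen cleavage, rose by 3.65 ± 0.80 (adjusted p = 0.0171). Of 23 matrix proteases and inhibitors 7 fell, with the gelatinase Mmp2 at −1.95 ± 0.42 (adjusted p = 0.0156). Of 15 laminins and other basement membrane genes 8 fell, led by the laminin γ1 chain Lamc1 at −1.10 ± 0.17 (adjusted p = 0.00286). Of 26 elastic fibre and matricellular genes 9 fell, among them Ltbp4, which binds latent TGF-β, at −2.61 ± 0.26 (adjusted p = 0.000118) and the proteoglycan Vcan at −2.80 ± 0.53 (adjusted p = 0.00868), and the matricellular phosphoprotein Spp1 rose by 2.18 ± 0.57 (adjusted p = 0.0337). Of 9 collagen receptors only Mrc2, which takes up collagen fragments, passed (−1.69 ± 0.41, adjusted p = 0.0267).

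Markers of other stromal cells were measured in the same tumours. None of 10 endothelial and none of 10 smooth muscle markers passed, with median log2 differences of −0.81 and −0.90, and 1 of 8 pericyte markers fell (Cspg4, −0.98 ± 0.24, limma adjusted p = 0.0268). Their summed normalized counts overlapped: 675 to 2989 in DKO_EE against 1547 to 3314 in DKO for endothelium, 946 to 1900 against 935 to 2985 for smooth muscle, and 1316 to 3503 against 2404 to 5494 for pericytes. Of 10 leukocyte markers 1 fell, Cd8a (−2.80 ± 0.52, adjusted p = 0.00769). Summed epithelial markers were 20647 to 32761 in DKO_EE and 22604 to 63508 in DKO. No epithelial, endothelial, smooth muscle or pericyte marker was at 0 throughout either group. The part these cells play in the matrix differences was not tested.

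Castrated DKO_EP tumours were compared with the same 4 castrated DKO tumours, so the DKO_EE and DKO_EP comparisons share their controls. None of the 62 genes passed for DKO_EP, where 0.0302% of 16558 genes did, 0.0181% higher and 0.0121% lower (limma). At an unadjusted p under 0.05 there were 14, and limma-voom on recovered reads also called 0. Here and below, counts at an unadjusted p stand without the share of all genes at that threshold. They are not read as an excess. Lum differed by −2.35 ± 0.72 (limma adjusted p = 0.21), Dcn by −2.25 ± 0.62 (adjusted p = 0.183) and Thy1 by −1.51 ± 0.42 (adjusted p = 0.185). Lum in DKO_EP read 8.34, 6.39, 5.60, 6.0 and 3.98, and only the first of these lay inside the DKO range.

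Set directly against DKO_EP, castrated DKO_EE was lower in Fn1 alone, 1.61% of the 62 genes beside 1.7% of all genes, 0.707% higher and 0.99% lower. Fn1, fibronectin, read 13.53, 12.95, 14.14, 13.22 and 14.23 in DKO_EP and 11.39, 11.70, 12.06, 12.15 and 11.49 in DKO_EE. The groups did not overlap, and the difference was −1.85 ± 0.32 (limma adjusted p = 0.0101). It no longer passed with Ttn as a covariate (adjusted p = 0.0871) or in the fit of all 11 groups (adjusted p = 0.105).

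In intact endstage tumours none of the 62 genes passed between DKO_EE and DKO, where 1.66% of 16640 genes did, 1.12% higher and 0.541% lower (limma). There were 5 at an unadjusted p under 0.05, and limma-voom on recovered reads called 2. Lum in the 8 intact DKO_EE tumours ran from 0.93 over a median of 6.47 to 10.67, and the 3 DKO tumours read 9.82, 9.63 and 6.78. The DKO_EE range enclosed the DKO values, and the difference was −2.47 ± 1.49 (limma adjusted p = 0.427). The median difference of the 62 genes was −0.46, against −0.03 for all genes. Whether the DKO_EE difference itself changed with castration was tested directly: none of the 62 genes passed, where 0.0119% of 16772 genes did, all higher (limma), with 5 at an unadjusted p under 0.05 and 0 by limma-voom. For Thy1 that change was −2.13 ± 1.01 (limma adjusted p = 0.497). None of the 62 passed for intact DKO_EP against DKO either, beside 0% of all genes, with 5 at an unadjusted p under 0.05 and 0 by limma-voom.

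At 12 weeks none of the 62 genes passed in DKO_EE or in DKO_EP against DKO, beside 0% of 16626 genes in each comparison (limma). At an unadjusted p under 0.05 there was 1 gene in each, and limma-voom called 0 in both. Col1a1 at this age read 11.31, 11.82, 11.07 and 11.38 in DKO, 14.00, 12.18, 11.56 and 13.59 in DKO_EE, and 11.02, 11.67, 14.23 and 11.10 in DKO_EP. Of the 4 tumours in each group, 3 in DKO_EE and 1 in DKO_EP lay above every DKO tumour, and the others overlapped.

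The genes of the 2 main type IV chains, Col4a1 and Col4a2, are a head-to-head pair on chromosome 8. Their proteins form the most widespread trimer of basement membranes. In RefSeq's annotation of GRCm38.p6 the start sites lie 21 bases apart on opposite strands, and the windows of 250 bases before to 50 after each start share 78 bases. The pair is printed because the 2 transcripts moved together, and Col1a2 and Col3a1 for contrast. Capitals mark the box CCAAT or its reverse complement ATTGG, the box GGGCGG or its reverse complement CCGCCC, and the box TATAAA or its reverse complement TTTATA. No marked motif overlaps another in these windows.
Col4a1 (chr8:11312777-11313076, minus strand): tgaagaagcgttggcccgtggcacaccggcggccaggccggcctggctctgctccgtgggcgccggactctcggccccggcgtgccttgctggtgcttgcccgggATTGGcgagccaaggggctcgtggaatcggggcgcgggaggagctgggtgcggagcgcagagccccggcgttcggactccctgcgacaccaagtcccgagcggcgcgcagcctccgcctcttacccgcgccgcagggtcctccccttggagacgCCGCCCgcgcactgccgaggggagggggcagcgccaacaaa
Col4a2 (chr8:11312555-11312854, plus strand): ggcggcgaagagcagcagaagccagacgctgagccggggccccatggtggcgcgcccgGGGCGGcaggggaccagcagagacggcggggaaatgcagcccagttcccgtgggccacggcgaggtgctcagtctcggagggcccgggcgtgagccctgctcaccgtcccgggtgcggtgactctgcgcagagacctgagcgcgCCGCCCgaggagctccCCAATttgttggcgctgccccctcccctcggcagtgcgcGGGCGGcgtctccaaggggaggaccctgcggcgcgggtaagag
Col1a2 (chr6:4505368-4505667, plus strand): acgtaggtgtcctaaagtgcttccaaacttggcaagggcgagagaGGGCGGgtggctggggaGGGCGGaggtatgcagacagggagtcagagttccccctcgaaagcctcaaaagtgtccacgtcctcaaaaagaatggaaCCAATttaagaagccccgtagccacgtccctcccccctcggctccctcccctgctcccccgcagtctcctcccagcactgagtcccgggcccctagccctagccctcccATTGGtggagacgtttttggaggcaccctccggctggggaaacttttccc
Col3a1 (chr1:45311288-45311587, plus strand): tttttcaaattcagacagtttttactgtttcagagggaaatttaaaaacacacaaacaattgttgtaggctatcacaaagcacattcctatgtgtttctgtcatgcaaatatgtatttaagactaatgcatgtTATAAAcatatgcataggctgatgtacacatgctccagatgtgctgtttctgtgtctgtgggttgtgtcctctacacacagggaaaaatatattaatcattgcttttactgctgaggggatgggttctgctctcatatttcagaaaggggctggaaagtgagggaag
Col4a1 holds 1 CCAAT and 1 GGGCGG, Col4a2 holds 1 and 3, Col1a2 holds 2 of each, and Col3a1 holds 1 TATAAA and neither of the others. The GGGCGG of Col4a1 lies in the shared bases and is the last GGGCGG of Col4a2 read on the other strand. It is 1 site counted for both genes. RefSeq windows were matched for 43 of the 62 genes, with 47 start sites. GGGCGG was found in 55.3% of these starts and in 35.7% of all 32851 windows, CCAAT in 31.9% and 37.4%, and TATAAA in 14.9% and 13.6%. A match of letters is a description and shows no bound factor.

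The ratio of Col4a1 to Col4a2 varied far less over all 48 mice than either level, but it was not fixed. Col4a1 minus Col4a2 averaged 0.96, 0.7 and 0.85 log2 units in intact endstage DKO, DKO_EE and DKO_EP. In the castrated groups it averaged 0.56, 0.45 and 0.58. The Col4a1 level exceeded that of Col4a2 by 0.69 ± 0.17 log2 units (mean and SD, n = 48), although the levels themselves varied with SDs of 0.98 and 1.01. Col6a1 exceeded Col6a2 by 0.50 ± 0.27, with SDs of 1.37 and 1.44 for the genes. The type I chains Col1a1 and Col1a2 were less tightly tied (−0.16 ± 0.59). Their difference lay between −1.12 and 0.22 in every uncastrated mouse and between 0.04 and 0.88 in every castrated one. In castrated DKO, Col4a1 read 12.03, 12.10, 12.04 and 12.46, and in castrated DKO_EE it read 10.84, 9.90, 11.93, 11.01 and 10.88. The groups did not overlap. Col4a1 fell by 1.25 ± 0.31 and Col4a2 by 1.13 ± 0.31 (limma adjusted p = 0.0287 and 0.0439), but Col4a1 lost its call in the fits without any of 4 single animals and Col4a2 in 8 of 9.

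**Figure D4:**
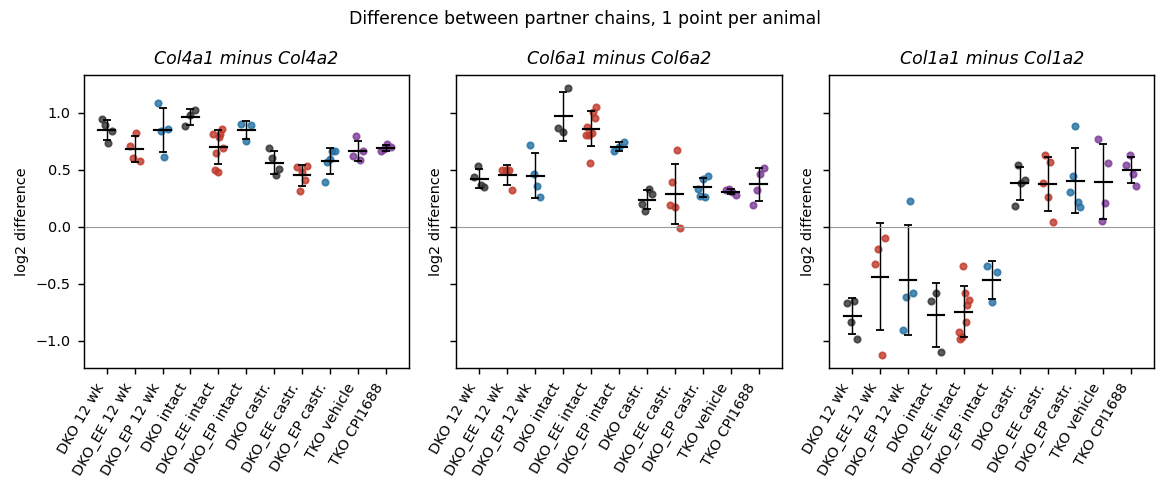
Points give, for each of the 48 mice, the log2 level of 1 chain minus that of its partner, by group, with group means and 1 SD. Col4a1 minus Col4a2 stays between 0.31 and 1.08 in every mouse, Col6a1 minus Col6a2 between −0.02 and 1.22, and Col1a1 minus Col1a2 lies above 0 in all castrated mice.

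Between 12 weeks and intact endstage, Col17a1 and Col7a1, which tie epithelium to the basement membrane, fell in all 3 genotypes. Of the 62 genes, 7 were lower and 1 higher at endstage in DKO (12.9%, beside 36.7% of 16772 genes, 18.7% lower and 18% higher), 30 lower and 4 higher in DKO_EE (54.8%, beside 50.6%, 27% lower and 23.6% higher), and 20 lower and 2 higher in DKO_EP (35.5%, beside 44.2%, 22.9% lower and 21.3% higher). The share called lower was above that of all genes in DKO_EE (48.4%) and DKO_EP (32.3%) and below it in DKO (11.3%). The share called higher was below that of all genes in each genotype (6.45%, 3.23% and 1.61% in the same order). Genes with every endstage value below every 12-week value gave another order. They made up 11.3% of the 62 genes beside 14.5% of all genes in DKO_EE. In DKO_EP they made up 35.5% beside 25.2%, and in DKO 19.4% beside 26.2%. Col4a3, Col4a4, Col4a5, Col7a1, Col17a1 and Col25a1 fell in each of the 3 genotypes, and Col9a1 rose in each. The share of all genes called in the same direction in all 3 genotypes is not given here. In DKO the count was 16 when only the compared groups were fitted, 4 with Ttn as a covariate and 20 with array weights. It was 5 without endstage DKO animal 3 or 12-week DKO animal 1 or 3. In DKO_EP it was 12 by limma-voom and 13 without intact endstage animal 1.

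Col17a1 encodes collagen XVII of hemidesmosomes. It read 8.92, 9.08, 9.34 and 6.79 in 12-week DKO tumours and 5.59, 5.37 and 1.48 at endstage. In DKO_EE it read 8.32, 9.92, 7.27 and 9.46 at 12 weeks and ran from 0.48 over a median of 4.22 to 6.46 in the 8 endstage tumours. No endstage value reached a 12-week value of the same genotype. It fell by 4.39 ± 1.66 in DKO, 4.97 ± 1.33 in DKO_EE and 6.49 ± 1.66 in DKO_EP (limma adjusted p = 0.0346, 0.0021 and 0.0017). In DKO the call was lost with Ttn as a covariate and without any of 4 single animals, with adjusted p from 0.0642 to 0.222. Col7a1, the collagen of anchoring fibrils, fell by 2.83 ± 1.04, 3.11 ± 0.84 and 2.94 ± 1.04 in the 3 genotypes (adjusted p = 0.0308, 0.00222 and 0.0206), and in DKO and DKO_EP it did not pass by limma-voom (adjusted p = 0.116 and 0.0904).

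Col25a1, a transmembrane collagen best known from neurons, read 8.46, 8.13, 8.02 and 8.4 in 12-week DKO and 2.85, 1.91 and 4.24 at endstage. It fell by 5.25 ± 0.95 in DKO, 4.38 ± 0.76 in DKO_EE and 4.78 ± 0.95 in DKO_EP (limma adjusted p = 4.47e-05, 1.38e-05 and 0.000112), and the DKO call held under every alternative run. The α3, α4 and α5 chains of type IV collagen fell with it: Col4a3 averaged 6.14, 5.78 and 6.46 at 12 weeks in DKO, DKO_EE and DKO_EP, and 2.91, 2.47 and 2.91 at endstage. Col4a1 and Col4a2 did not pass in any of the 3 genotypes. Beside these genes, the laminin chains Lama5 and Lamb3 of epithelial basement membrane and the collagen-binding integrin Itga2 also fell in all 3 genotypes. They were named from longer lists, whose counts in DKO and DKO_EP are not given here. Of all genes, 18.7% were lower in DKO, 27% in DKO_EE and 22.9% in DKO_EP. Krt5, a keratin of basal epithelium, averaged 9.32 ± 1.43 (SD, n = 4) at 12 weeks and 3.85 ± 3.51 (n = 3) at endstage in DKO (adjusted p = 0.0653), and fell by 6.34 ± 1.90 in DKO_EE and 7.97 ± 2.36 in DKO_EP (adjusted p = 0.00536 and 0.00607). Krt14 averaged 7.86 ± 0.97 and 3.53 ± 3.07 in DKO. The share of the collagen changes that follows basal cells was not tested.

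Col9a1 read 0.00, 1.30, 1.04 and 1.11 in 12-week DKO and 6.96, 7.23 and 4.09 at endstage. No 12-week value reached an endstage value. It rose by 5.23 ± 1.05 in DKO, 4.13 ± 0.85 in DKO_EE and 5.28 ± 1.05 in DKO_EP (limma adjusted p = 0.000171, 0.000118 and 0.000118), and these calls held under every alternative run. Its partner Col9a2 rose in DKO_EE by 2.33 ± 0.83 and in DKO_EP by 4.34 ± 1.04 (adjusted p = 0.0187 and 0.000896). All 8 neuroendocrine markers rose in all 3 genotypes, and their sums went from 33 to 739 normalized counts at 12 weeks to 10560 to 13543 at endstage in DKO. Whether Col9a1 comes from the same cells was not tested.

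In DKO_EE alone, Col8a1 rose past the threshold (2.86 ± 0.69, limma adjusted p = 0.000824), as did Col22a1, a FACIT of tissue junctions (3.88 ± 0.93, adjusted p = 0.000715), though Col22a1 not with Lars2 as a covariate (adjusted p = 0.0987). Col8a1 ran from 10.03 over a median of 12.18 to 13.26 in the 8 endstage DKO_EE tumours, and read 7.78, 9.59, 8.38 and 10.86 at 12 weeks. The groups overlapped through 1 mouse at 12 weeks. In DKO, Col8a1 differed by 2.07 ± 0.87 (adjusted p = 0.0566) and in DKO_EP by 1.56 ± 0.87 (adjusted p = 0.14). The rise in DKO_EE exceeded that in DKO by 0.79 ± 1.11, which did not pass (adjusted p = 0.862).

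**Figure D5:**
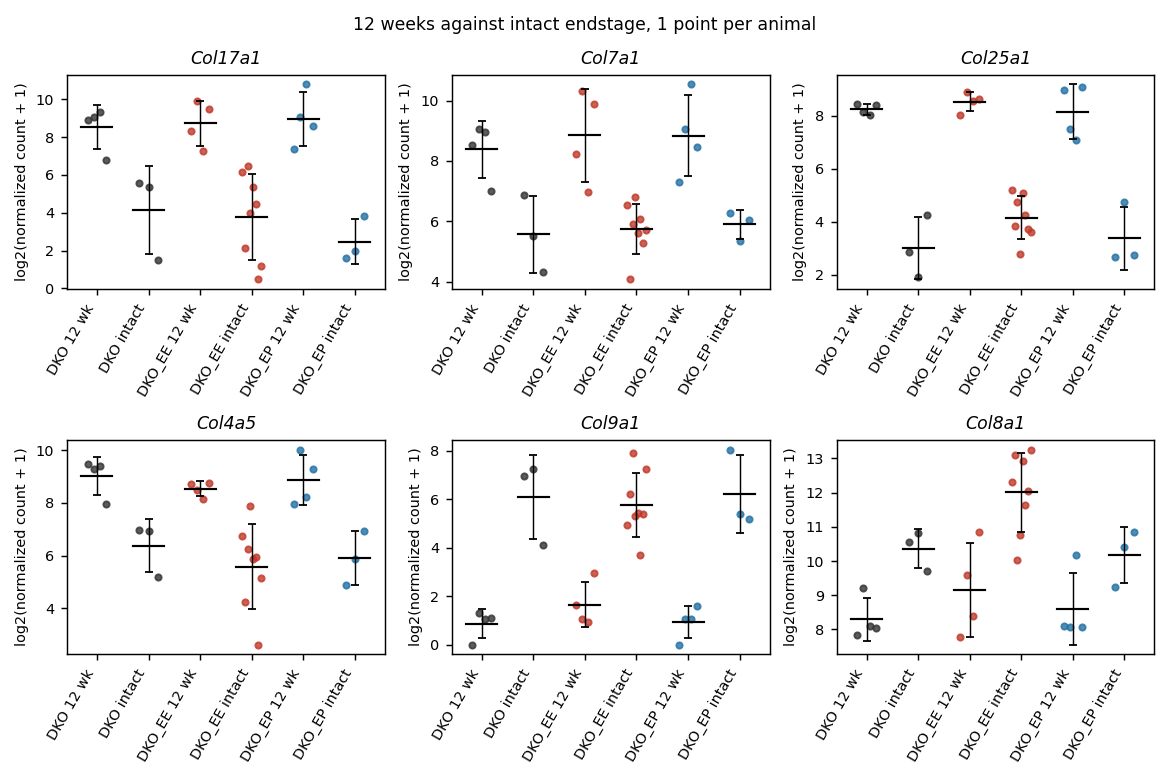
Points show the log2(normalized count + 1) level of 6 collagens in each mouse at 12 weeks (12 wk) and at uncastrated endstage (intact), side by side for each genotype. Horizontal lines are group means and vertical lines 1 SD. Col17a1, Col7a1, Col25a1 and Col4a5 are lower and Col9a1 higher at endstage in each genotype, and Col8a1 reaches 13.26 in endstage DKO_EE.

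The fibroblast matrix genes fell with progression in DKO_EE and, in part, in DKO_EP. Dcn read 13.76, 12.07, 14.10 and 11.83 at 12 weeks and ran from 4.52 over a median of 9.28 to 12.94 at endstage. It fell by 3.69 ± 0.89, Lum by 3.81 ± 1.08, Thy1 by 2.75 ± 0.65 and Pdgfra by 2.94 ± 0.83 (limma adjusted p = 0.00077, 0.0034, 0.000588 and 0.00323). Col1a1 fell by 2.24 ± 0.74 (adjusted p = 0.0115), and did not pass without 12-week DKO_EE animal 1 (−1.85, adjusted p = 0.0627). The proteoglycan Ogn fell by 3.14 ± 0.73, the cross-linking enzyme Loxl1 by 2.58 ± 0.63 and Sparc by 1.79 ± 0.54 (adjusted p = 0.000541, 0.000884 and 0.00546). In DKO_EP, Ogn fell by 3.68 ± 0.91 and Pdgfra by 3.25 ± 1.03 (adjusted p = 0.00127 and 0.00983), while Loxl1 differed by −1.41 ± 0.79 (adjusted p = 0.143) and Lum by −2.50 ± 1.34 (adjusted p = 0.126). Dcn fell there by 2.77 ± 1.11, Thy1 by 1.98 ± 0.81 and Bgn by 2.02 ± 0.74 (limma adjusted p = 0.0398, 0.0434 and 0.0252). Dcn did not pass by limma-voom (adjusted p = 0.0801), after quantile normalization (0.0561), or without any 1 of DKO_EP endstage animals 1, 2 and 3 or 12-week animals 1, 2 and 4 (0.0562 to 0.13). Thy1 did not pass by limma-voom (0.14), with only the compared groups fitted (0.0615), with Lars2 as a covariate (0.0548), or without any 1 of endstage animals 1, 2 and 3 or 12-week animal 3 (0.059 to 0.219). Bgn did not pass without endstage animal 3 (0.0967) or 12-week animal 3 (0.121). The share of all genes lower in both DKO_EE and DKO_EP and not called in DKO is not given here. In all, 11 of the 62 genes had this pattern. In DKO the same genes did not pass, with Dcn at −1.83 ± 1.11, Lum at −1.11 ± 1.34 and Col1a1 at 0.12 ± 0.93 (adjusted p = 0.201, 0.55 and 0.939).

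The difference in progression between DKO_EE and DKO was tested directly, and none of the 62 genes passed, where 0.125% of 16772 genes did, 0.0954% higher and 0.0298% lower (limma). There were 7 at an unadjusted p under 0.05, and limma-voom called 0. The median of that difference over the 62 genes was −1.07, against −0.04 for all genes. For Col1a1 it was −2.36 ± 1.19 (limma adjusted p = 0.491). In DKO_EE, 11 of 26 collagen processing genes, 18 of 26 elastic fibre and matricellular genes and 11 of 15 laminins and other basement membrane genes fell as well, beside 27% of all genes lower, and 9 of 10 smooth muscle, 7 of 10 leukocyte and no endothelial markers fell. The part of the Lars2 reads and of cell makeup in these differences was not tested.

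Castrated and intact endstage tumours differed in few of the 62 genes. In DKO 1 was higher and 2 were lower (4.84%), beside 13.9% of all genes, 7.01% higher and 6.93% lower (limma). In DKO_EE 1 was higher and 2 were lower (4.84%), beside 16.5% of all genes, 8.3% higher and 8.19% lower. In DKO_EP 1 was lower (1.61%), beside 9.87% of all genes, 4.89% higher and 4.98% lower. Col11a2, a minor fibrillar chain known from cartilage, read 5.48, 5.94 and 5.16 in intact and 8.65, 5.31, 8.16 and 7.58 in castrated DKO. It rose by 1.90 ± 0.57 in DKO and 1.44 ± 0.43 in DKO_EE (adjusted p = 0.0198 and 0.0141), and differed by 0.78 ± 0.55 in DKO_EP (adjusted p = 0.512). Col9a1 and Col6a6 were lower in castrated DKO, Col14a1 and Dcn in castrated DKO_EE, and Col6a5 in castrated DKO_EP. Of these, Col6a5, an α chain that can replace α3 in type VI collagen, read 3.32, 5.91 and 5.33 in intact DKO_EP and was listed at 0 in 4 of 5 castrated tumours and at 1.72 in the other. The count in DKO_EE was 8 without intact animal 7. Each of the 7 calls was lost without at least 1 animal or in another fit, and Dcn turned to 1.12 (adjusted p = 0.726) with Lars2 as a covariate. Castration and any difference in when the libraries were made cannot be told apart.

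In castrated TKO tumours, none of the 62 genes passed between CPI1688 and vehicle, beside 0% of 16512 genes (limma). None reached an unadjusted p under 0.05, and limma-voom called 0. Col3a1 read 16.85, 14.00, 12.18 and 14.02 on vehicle and 13.36, 14.11, 15.24 and 16.82 on CPI1688. The groups overlapped almost completely, and in vehicle animal 1 the 62 genes took 7.9% of reads. The difference was 0.62 ± 1.08 for Col3a1, with a 95% interval from −1.87 to 3.11, and 0.68 ± 1.17 for Col1a1, with an interval from −2.01 to 3.36. The median difference of the 62 genes was 0.41, against 0.02 for all genes.

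Against castrated DKO, castrated TKO on vehicle was higher in Col11a1 alone, 1.61% of the 62 genes beside 0.566% of all genes, 0.304% higher and 0.262% lower. Col11a1, a minor chain of type II and type V fibrils and a marker of activated fibroblasts in human tumours, read 11.47, 7.21, 7.22 and 8.4 in TKO and 5.02, 4.01, 1.95 and 5.85 in DKO. The groups did not overlap, and the difference was 4.37 ± 0.89 (limma adjusted p = 0.00937). It did not pass by limma-voom (adjusted p = 0.184), when age was fitted (0.469), in the fit of the compared groups alone (0.871), with array weights (0.0863) or without DKO animal 3 (0.0821). Without DKO animal 2, 3 of the 62 genes passed. TKO mice were 15 to 19 weeks old and castrated DKO mice 39 to 99 weeks, so age and genotype cannot be told apart.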

How the data were processed

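Total RNA was ribosome-depleted and sequenced, per the labels' protocols. The authors deposited 1 table of log2(normalized count + 1) values for 16772 genes. The submitters' processing notes list FastQC, STAR, RSEM, limma and DESeq2 and the builds GRCm38 and mm10, without roles. Of 56 columns, 2 matched no sample and were not used. Whole reads were recovered from the values within 0.05 reads (100% in every library). SKO samples and Col21a1 were not analysed here.

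Pieces of 1 mouse were averaged. Genotypes and treatments were compared within 1 setting, and stages, castration and TKO against DKO in a fit of all 11 groups, with limma's trended test (limma 3.58.1, R 4.3.3) on the deposited log2 values. P-values were adjusted by Benjamini-Hochberg over all genes tested, with a threshold of 0.05. Fold changes on this scale understate changes of low genes. Because the table holds log2 values, limma-voom on recovered reads served as an alternative. The fits were tested on simulated data. Figures and summaries used Python 3.11.15, pandas 2.3.3, scipy 1.17.1 and matplotlib 3.10.9.

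The members and lists were chosen with earlier results of these data known. Up to 4 called members per class with the smallest adjusted p were named, with a fixed set of 21 members whether or not they passed. Lama5, Loxl4, Mrc2, Spp1, Pcolce2 and single animals described beside them were chosen after their values were seen. Lengths were exon lengths from GENCODE M21, and promoters came from RefSeq. Alternatives changed the filter, offset, normalization, test, samples in the fit, pieces, covariates (age, Ttn, Lars2), sample weights and single animals.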

Additional observations from a re-analysis of the deposited data

Results flagged for a closer look

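Single animals of 9 among 117 groups of values stood far from the rest of their group, where chance gives about 1 in 20. The 9 are not read as an excess over that rate. Col17a1 had 3 of them: the highest castrated DKO tumour at 11.36 (animal 2, aged 99 weeks), the highest castrated DKO_EP tumour at 5.07 (animal 3) and the lowest 12-week DKO tumour at 6.79 (animal 4). Col8a1 had the lowest castrated DKO tumour at 7.01, again animal 2, and the highest 12-week DKO_EP tumour at 10.18 (animal 3). In castrated DKO animal 2, Krt5 was at 14.23, the highest of its group. Col4a1 was highest at 12.46 in castrated DKO animal 4, a group in which the other tumours differed by less than 0.1. Lum was lowest at 2.81 in castrated DKO_EE animal 1. The 62 genes together took 7.9% of reads in TKO vehicle animal 1 and 2.24% in 12-week DKO_EP animal 3, each the highest of its group.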

How the results depend on the processing

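Counts of called genes among the 62 that moved by more than 1.5 times are given here beside the count as reported. For castrated DKO_EE against DKO (15), age as a covariate gave 7 and array weights 29. For intact endstage DKO_EE against DKO (0), an offset of 16 gave 1, limma-voom 2, all 11 groups in the fit 1 and array weights 5. For castrated DKO_EP against DKO (0), all 11 groups gave 1. For castrated DKO_EE against DKO_EP (1), all 11 groups and Ttn as a covariate gave 0 and array weights 3. For progression in DKO (8), the compared groups alone gave 16, Ttn 4 and array weights 20, in DKO_EP (22) limma-voom gave 12, and for the difference of progression (0) array weights gave 5. For castrated against intact DKO (3), the compared groups alone gave 0, age 1 and array weights 7. For castrated against intact DKO_EE (3), limma-voom and Lars2 gave 1 and array weights 7. For castrated against intact DKO_EP (1), an offset of 16, limma-voom and the first library of each animal gave 0, and the compared groups alone and array weights 3. For TKO vehicle against DKO (1), limma-voom, the compared groups alone, age and array weights gave 0. With 1 animal left out, counts ran from 0 to 2 for intact DKO_EE, 10 to 20 for castrated DKO_EE and 0 to 1 for castrated DKO_EP, each against DKO, and from 1 to 2 for castrated DKO_EE against DKO_EP. They ran from 5 to 11, 26 to 40 and 13 to 20 for progression in DKO, DKO_EE and DKO_EP, from 1 to 5, 1 to 8 and 0 to 1 for castrated against intact, and from 0 to 3 for TKO vehicle against DKO. The remaining comparisons stayed at 0. Dcn, lower in castrated than intact DKO_EE, turned to 1.12 with Lars2 as a covariate, and the cause was not tested. Causes of the other shifts were not tested either. No paired analysis was possible because the labels give no replicate numbers shared between groups. At this depth 8 of the 62 genes had a median under 10 reads per library, Col17a1 with 7 among them, so their levels near 0 rest on few reads.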

Other observations

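For 3 of 7 pairs of partner chains, the log2 ratio moved in the same direction between castrated and intact endstage tumours in DKO, DKO_EE and DKO_EP, with an adjusted p under 0.05 in DKO_EE and DKO_EP. Col1a1 minus Col1a2 averaged −0.78, −0.75 and −0.47 log2 units in intact DKO, DKO_EE and DKO_EP and 0.38, 0.38 and 0.40 in the castrated groups, and no castrated mouse reached an intact one. Two-sided exact permutation tests gave p = 0.0286, 0.000777 and 0.0179, adjusted over 21 tests to 0.0545, 0.0163 and 0.0469. For DKO, 0.0286 is the smallest p that 35 permutations can give. Col6a1 minus Col6a2 was lower in castrated than in intact endstage tumours by 0.73, 0.58 and 0.36 log2 units and Col4a1 minus Col4a2 by 0.40, 0.25 and 0.27. Adjusted exact permutation p were 0.0545, 0.0163 and 0.0469 for the former and 0.0545, 0.0469 and 0.0469 for the latter. In uncastrated 12-week DKO, DKO_EE and DKO_EP, Col6a1 minus Col6a2 averaged 0.42, 0.45 and 0.45. These means lay nearer the castrated (0.24, 0.28 and 0.34) than the intact endstage means (0.97, 0.86 and 0.7). Col5a1 minus Col5a2 was higher in castrated than in intact endstage tumours by 0.35, 0.63 and 0.99, with adjusted exact permutation p of 0.529, 0.0469 and 0.0625. Its 12-week means of −0.38, −0.43 and −0.3 also lay nearer the castrated means. For Col1a1 minus Col1a2 (−0.79, −0.44 and −0.47) and Col4a1 minus Col4a2 (0.85, 0.68 and 0.85) the 12-week means lay nearer the intact endstage means. The other 3 pairs did not share a direction. Col4a5 minus Col4a6 differed by 0.13, 1.24 and −0.76 (adjusted exact permutation p = 0.943, 0.0469 and 0.492), Col4a3 minus Col4a4 by −0.20, 0.20 and 0.09 (0.9, 0.769 and 0.9), and Col9a1 minus Col9a2 by −2.32, 0.85 and 1.47 (0.0923, 0.394 and 0.188). The 7 pairs were chosen after the data were seen, and castration and any difference between library batches cannot be told apart.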
